A study of Mus musculus with 15 samples.

Results

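The genes described here encode semaphorins, plexins, Slits, Robo receptors, netrins, their receptors and the FLRT proteins, the main families of axon and vessel guidance cues. Members were taken by symbol alone: every symbol that begins with Sema3 to Sema7 or with Plxna, Plxnb, Plxnc or Plxnd, together with Robo1 to Robo4, Slit1 to Slit3, Unc5a to Unc5d, Ntn1, Ntn3, Ntn4, Dcc, Neo1 and Flrt1 to Flrt3. This gave 49 of the 24034 genes in the count table: 7 secreted class 3 semaphorins, 13 membrane-anchored semaphorins, 9 plexins, 3 Slits, 4 Robo receptors, 3 netrins, 6 netrin receptors, 3 FLRT genes and Plxna4os1, a transcript antisense to Plxna4 that the symbol rule took in. Of these, 47 passed the filter on low counts and were tested. Dcc, with 0 to 3 counts a library, and Flrt1, with 0 to 8, did not.

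Mouse embryonic stem cells were differentiated and sorted, and their RNA was sequenced in 5 groups of 3 libraries, 15 in all. The cells carried a LacZ reporter under regulatory elements of Endoglin (Eng), a TGF-beta family co-receptor of endothelial cells. FLK1+/LacZ- and FLK1+/LacZ+ cells came from lines with the Eng promoter (P) and its -8, +7 and +9 kb enhancers, and FLK1 is the VEGF receptor of early mesoderm. ENG+/FDG-, ENG+/FDG+ and ENG-/FDG+ cells, all labelled HEI, came from lines with the promoter and the -8 kb enhancer only; FDG is a fluorogenic substrate of the LacZ enzyme, and ENG is the surface protein. The design text ties the -8 kb construct to TIE2+/c-KIT+/CD41- cells with hematopoietic potential. HEI is not spelled out in the labels, which give no culture days, gates or number of clones behind each line. Any HEI against FLK1+ difference joins stage, reporter line and sort gate, which cannot be told apart. The labels number the libraries r1 to r3 and name no separate cultures, so p-values measure the spread between these libraries, which may be technical.

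Guidance cues steer growing axons and also endothelial sprouts. Class 3 semaphorins act through neuropilins paired with plexins, the membrane semaphorins bind plexins directly, Slits bind Robo receptors, and netrins bind Dcc, Neo1 and the Unc5 receptors, with FLRT proteins as a further class of Unc5 ligand. In the vasculature Plxnd1, Robo4 and Unc5b are the receptors best known from endothelial cells, and they control vessel patterning and barrier function.

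Depth was 9705729 to 16375835 counts a library, so 3 counts, the limit below which a gene is not told from 0, correspond to 0.182 to 0.308 CPM, the library-size-scaled count of a gene (TMM scaling). Replicate 1 of every group stood apart from replicates 2 and 3: log2 CPM correlated at 0.987 to 0.990 between replicates 2 and 3 and at 0.864 to 0.933 between replicate 1 and either. Against replicates 2 and 3, 37 of 47 tested members differed in replicate 1, 30 higher and 7 lower, beside 70.3% of all genes (38.6% higher and 31.7% lower). Values are therefore printed in the order replicate 1, 2, 3, and tests are also given with the replicate number as a block. Eng itself stood at 38.4, 20.8 and 25.0 CPM in FLK1+/LacZ- cells, at 904, 180.2 and 186 in ENG+/FDG+ HEI cells and at 161, 39.4 and 45.1 in ENG-/FDG+ HEI cells, so within each replicate its RNA followed the ENG gate (2.26 ± 0.25 log2 with the replicate number as a block, edgeR adjusted p = 0.000236; 0.372 without it). Each of the 8 endothelial markers checked had a count in every group. In FLK1+/LacZ- cells, however, Cldn5 (0.0701 to 0.0927 CPM) and Emcn (0 to 0.140) stayed under 3 counts in each library. The summed level of the 8 markers was 30.6 to 54.0 CPM in FLK1+/LacZ- cells, 80.6 to 272 in FLK1+/LacZ+, 3146 to 4918 in ENG+/FDG- HEI, 3223 to 4189.5 in ENG+/FDG+ HEI and 1667 to 1929 in ENG-/FDG+ HEI cells. In bulk RNA, fewer cells of a type and less RNA per cell cannot be told apart.

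Receptors and FLRT genes held the highest levels, and the leading genes differed between FLK1+ and HEI cells. Levels between genes are compared in CPM per kb of the principal transcript, as mean ± SD over 3 libraries. In FLK1+/LacZ- cells Unc5b led at 49.6 ± 29.8, followed by Unc5c at 23.0 ± 13.2 and the FLRT gene Flrt3 at 15.9 ± 1.83. FLK1+/LacZ+ cells had the same order, with 54.6 ± 37.6, 26.2 ± 14.2 and 18.8 ± 6.32 CPM per kb. Replicate 1 of Unc5b was high in both groups, and its lead over Unc5c in these cells lies within the spread.

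In ENG+/FDG- HEI cells the order of the means was Plxnd1 at 65.8 ± 61.0 CPM per kb, Unc5b at 64.1 ± 45.8, Flrt2 at 42.4 ± 8.91, Plxnc1 at 38.6 ± 6.29, Sema6d at 27.5 ± 6.88 and Robo4 at 21.6 ± 23.4. ENG+/FDG+ HEI cells kept that order, from Plxnd1 at 64.2 ± 54.9 to Robo4 at 18.8 ± 18.1. In ENG-/FDG+ HEI cells Unc5b and Unc5c had the highest means, 50.5 ± 60.2 and 41.9 ± 20.01, before Plxnd1 at 33.2 ± 26.5 and Plxnc1 at 25.2 ± 7.59. Unc5b led there through replicate 1 alone and ranged from 14.8 to 119.9 CPM per kb. In replicates 2 and 3 Unc5c led, and Unc5b stood below Plxnc1 and Flrt2. Robo4 there was at 2.61 ± 1.68 CPM per kb. Neighbours in these orders overlap in their SDs, as Plxnd1 and Unc5b do in each HEI group, and replicate 1 carries much of the spread of Plxnd1, Unc5b and Robo4.

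**Figure D1:**
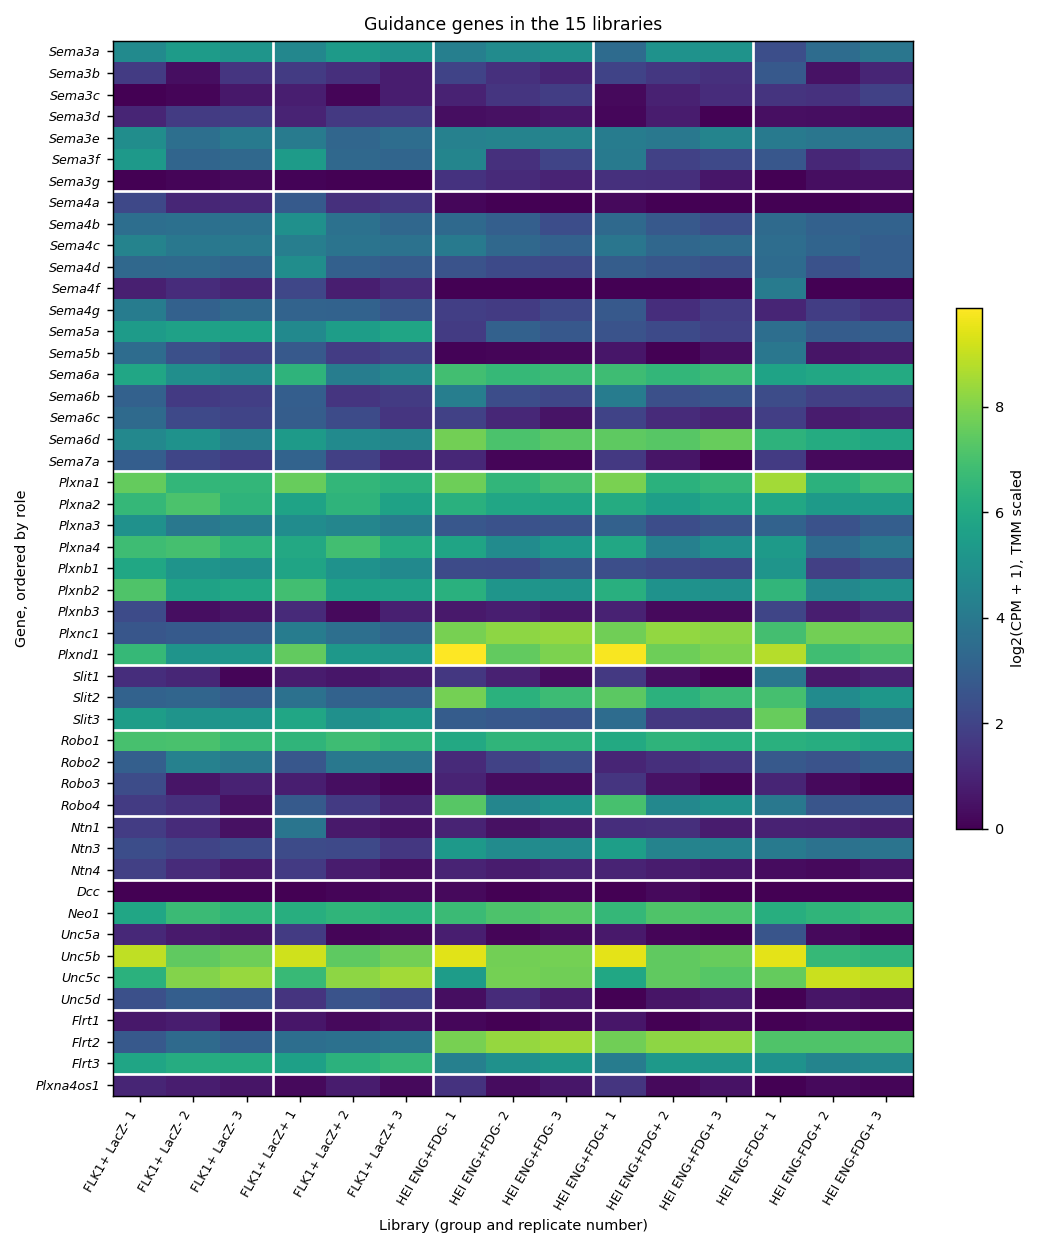
Level of each of the 49 guidance genes in each of the 15 libraries, as log2(CPM + 1) on the colour scale, with genes on the y axis ordered by role and libraries on the x axis. Flrt2, Plxnc1 and Slit2 are higher in all HEI libraries and Sema5a, Plxna3 and Sema4a across the FLK1+ libraries, and replicate 1 of a group often differs from the other two.

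Promoter stretches of 6 members on which the FLK1+ to HEI comparison turns are shown here to set 5 genes that were higher in HEI cells beside Flrt3, the family member of Flrt2 that was lower. Each is the RefSeq sequence before the gene's start (build GRCm38.p6), written 5' to 3' on the gene's strand, with any bases that overlap an annotated exon left out (75 for Robo4 and 17 for Slit2). Capitals mark matches, on either strand, to 4 hexamers: the ETS cores CCGGAA and AGGAAG, the GATA core AGATAA and the RUNX core TGTGGT.
Plxnd1, chr6:115995006-115995255, minus strand: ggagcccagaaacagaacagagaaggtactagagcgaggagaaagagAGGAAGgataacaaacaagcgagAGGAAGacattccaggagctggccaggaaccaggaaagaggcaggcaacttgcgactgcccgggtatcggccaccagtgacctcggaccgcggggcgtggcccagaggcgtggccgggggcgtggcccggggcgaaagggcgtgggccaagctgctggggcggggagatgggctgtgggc
Plxnc1, chr10:94944846-94945095, minus strand: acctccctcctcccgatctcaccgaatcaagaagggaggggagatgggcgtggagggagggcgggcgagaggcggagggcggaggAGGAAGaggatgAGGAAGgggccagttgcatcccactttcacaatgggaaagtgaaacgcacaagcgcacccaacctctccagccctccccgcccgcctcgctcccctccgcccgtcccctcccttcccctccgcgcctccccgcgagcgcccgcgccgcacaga
Robo4, chr9:37401722-37401896, plus strand: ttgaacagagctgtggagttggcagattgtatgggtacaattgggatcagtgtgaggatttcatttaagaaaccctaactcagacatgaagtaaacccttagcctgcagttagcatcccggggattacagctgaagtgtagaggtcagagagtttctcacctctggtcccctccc
Slit2, chr5:47982905-47983137, plus strand: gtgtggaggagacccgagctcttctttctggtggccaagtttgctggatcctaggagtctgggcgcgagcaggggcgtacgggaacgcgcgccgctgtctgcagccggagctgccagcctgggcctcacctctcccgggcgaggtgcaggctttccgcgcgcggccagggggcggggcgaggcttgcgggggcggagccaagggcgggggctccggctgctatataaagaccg
Flrt2, chr12:95691976-95692225, plus strand: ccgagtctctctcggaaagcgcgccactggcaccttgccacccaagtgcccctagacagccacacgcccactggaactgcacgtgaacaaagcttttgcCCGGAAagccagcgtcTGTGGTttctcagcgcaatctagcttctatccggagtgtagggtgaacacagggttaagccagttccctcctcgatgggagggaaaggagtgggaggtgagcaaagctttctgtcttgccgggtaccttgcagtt
Flrt3, chr2:140671477-140671726, minus strand: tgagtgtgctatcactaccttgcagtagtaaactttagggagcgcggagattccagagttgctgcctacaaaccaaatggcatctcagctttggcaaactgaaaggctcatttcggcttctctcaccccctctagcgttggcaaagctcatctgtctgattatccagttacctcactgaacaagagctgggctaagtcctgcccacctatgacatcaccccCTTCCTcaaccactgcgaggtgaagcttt

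Plxnd1 holds AGGAAG at 203 and 180 bases before its start and Plxnc1 at 165 and 153. In Flrt2 the CCGGAA core lies 151 bases and TGTGGT 135 bases before the start, and in Flrt3 the reverse complement of AGGAAG lies at 29. The Robo4 and Slit2 stretches hold none of the 4, although AGGAAG is found in Robo4 outside the stretch shown. These stretches also differ in base composition: the Robo4 stretch has 1 CpG and that of Slit2 has 23. Any windows of Dcc and Sema6a, on chromosome 18, were left out, though the full RefSeq set of windows was not filtered this way. Over 300-base windows (250 before to 50 after the start), 38 members then have 51 windows in the RefSeq table. AGGAAG was in 41.2% of the member windows against 35.4% of all 32851 windows, CCGGAA in 11.8% against 14.9%, TGTGGT in 13.7% against 16.8% and AGATAA in 1.96% (1 window) against 11.2%. Member windows were also richer in G and C. Over the 250 bases before the start their median was 64.0% GC and 13 CpG, against 52.4% and 6 in all windows. The part of base composition in these percentages was not tested. AGGAAG was found in 5 of 10 members with a window that were higher in HEI cells and in 9 of 17 that were lower. The other motifs searched were the E-box CAGCTG, in 15.7% of member windows against 16.3% of all, the AP-1 site TGACTCA, in 3.92% against 5.20%, and the SOX core ACAATG, in 13.7% against 12.6%. Such matches are a description of letters and not of binding.

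The comparison of HEI with FLK1+ cells asks how guidance genes differ between HEI and FLK1+ sorted cells. Means over the 3 HEI groups and over both FLK1+ groups were compared; differences are in log2 with their standard error (SE), and p-values come from edgeR's quasi-likelihood test with Benjamini-Hochberg adjustment over all 13662 genes tested, with 0.05 as the threshold. Of 47 tested members, 30 passed, 11 higher and 19 lower in HEI cells, which is 63.8% beside 37.3% of all genes (17% higher, 20.3% lower). The median difference was -0.62 over the members and -0.11 over all genes. All 30 also passed, in the same direction, with the replicate block (36 members, beside 66.2% of genes) and in replicates 2 and 3 alone (37 of 42 tested, beside 73.7%). With the block 12 members (25.5%) were higher and 24 (51.1%) lower, beside 28.8% and 37.4% of all genes. In replicates 2 and 3, 13 (31%) were higher and 24 (57.1%) lower, beside 36.8% and 36.9%. In both of these fits the higher share lay below that of all genes and the lower share above it. With any 1 of the 15 libraries left out, 21 of the 30 passed in every fit, 9 higher and 12 lower. The 5 members whose HEI libraries all lay above all FLK1+ libraries were Flrt2, Ntn3, Plxnc1, Sema6d and Slit2 (8.58% of all genes), and Flrt3, Plxna3, Plxna4, Sema3d, Sema4a, Sema5a and Unc5d lay wholly below (9.57% of all genes). A test over the 5 groups together called 19 members, beside 23.2% of genes, and 37 with the replicate block, beside 58.4%.

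Among plexins, the receptors of the semaphorins, 2 of 9 rose in HEI cells and 4 fell, beside 17% and 20.3% of all genes. Families are small, so the counts here and below are description and not results about a family. Plxnc1 stood at 5.33, 6.0 and 6.58 CPM in FLK1+/LacZ- cells, 16.7, 11.1 and 8.31 in FLK1+/LacZ+ cells, 229.9, 297 and 318 in ENG+/FDG- HEI cells, 213, 312 and 287 in ENG+/FDG+ HEI cells and 120.2, 220.0 and 212 in ENG-/FDG+ HEI cells. Every HEI library was above every FLK1+ library. Plxnc1, the receptor of Sema7a, lies at chr10:94790866-94944835 (mm10, minus strand) and differed by 4.83 ± 0.24 (28.4-fold, edgeR adjusted p = 3.49e-08). Plxnd1 measured 96.6, 34.0 and 34.8 CPM in FLK1+/LacZ- cells, 180.0, 37.2 and 34.1 in FLK1+/LacZ+ cells, 939, 179 and 246 in ENG+/FDG- HEI cells, 880.4, 208 and 242 in ENG+/FDG+ HEI cells and 440.1, 113 and 135 in ENG-/FDG+ HEI cells. Replicate 1 was the highest of its group throughout, and the FLK1+/LacZ+ replicate 1 library reached the range of HEI replicates 2 and 3, so the groups overlapped. The difference for Plxnd1, at chr6:115954811-115995005 on the minus strand, was 2.4 ± 0.62 (5.28-fold, edgeR adjusted p = 0.00815).

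Those that fell were Plxna3, Plxnb1, Plxna4 and Plxna2. Plxna3, an A-type plexin of class 3 semaphorin receptors, was at 14.4 to 30.6 CPM in FLK1+ libraries and 4.0 to 7.55 in HEI libraries, with no overlap (-1.95 ± 0.22, edgeR adjusted p = 2.01e-05). Plxnb1, the receptor of Sema4d, was at 24.5 to 58.2 CPM in FLK1+ libraries and 2.69 to 5.28 in 8 of the HEI libraries, while ENG-/FDG+ HEI replicate 1 stood at 34.4 (-2.69 ± 0.47, edgeR adjusted p = 0.000565). Plxna4 differed by -1.57 ± 0.34 and Plxna2 by -0.55 ± 0.18. Plxna1, at 78.0 to 365 CPM over all libraries, and Plxnb3, at 0.190 to 3.79, did not pass, nor did Plxna4os1, at 0 to 1.89. Plxnb2 passed with the block (-0.73 ± 0.09, edgeR adjusted p = 4.60e-06; 0.178 without it) and in replicates 2 and 3 alone (-0.65).

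The secreted semaphorins differed in level and moved both ways: 2 of 7 rose and 2 fell, beside 17% and 20.3% of all genes. In FLK1+/LacZ- cells Sema3a and Sema3f, at 5.69 ± 1.39 and 5.53 ± 5.12 CPM per kb, had the highest means of all semaphorins. Sema3b, Sema3c, Sema3d and Sema3g were low, with group means of at most 0.693 CPM per kb. Sema3g, a class 3 ligand, had 0 to 0.185 CPM in FLK1+ and 0 to 1.70 in HEI libraries, with 0 to 2 counts in each FLK1+ library, and rose by 3.54 ± 0.76 (edgeR adjusted p = 0.00258). Sema3c was at 0 to 0.766 and 0.195 to 2.73 CPM (2.05 ± 0.66, edgeR adjusted p = 0.0272). Sema3d was at 0.958 to 2.5 CPM in FLK1+ and 0 to 0.667 in HEI libraries (-2.54 ± 0.49). Sema3a, the classical neuropilin-1 ligand, was at 23.0 to 41.8 in FLK1+ and 4.16 to 32.4 in HEI libraries (-0.87 ± 0.30). Sema3e, the direct ligand of Plxnd1, stood at 8.60 to 27.5 CPM in FLK1+ and 13.7 to 21.2 in HEI libraries and did not pass (0.24 ± 0.22, edgeR adjusted p = 0.429), although replicates 2 and 3 alone called it higher (0.70, edgeR adjusted p = 5.50e-05). Sema3d, Sema3a and Sema3e lie in a row on chromosome 5, with 536465 and 422710 bases between neighbours. Sema3b did not pass, and Sema3f passed with the block (-1.89 ± 0.18, edgeR adjusted p = 4.14e-07; 0.0579 without it) and in replicates 2 and 3 alone (-1.89).

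Of the 13 membrane semaphorins, 2 rose and 9 fell, beside 17% and 20.3% of all genes. Sema6d stood at 23.4, 32.1 and 18.6 CPM in FLK1+/LacZ- cells, 40.6, 25.7 and 22.1 in FLK1+/LacZ+ cells, 218, 134 and 162 in ENG+/FDG- HEI cells, 170.1, 159 and 192 in ENG+/FDG+ HEI cells and 81.7, 66.5 and 56.3 in ENG-/FDG+ HEI cells. All HEI libraries were above all FLK1+ libraries, and ENG- cells were the lowest of the HEI groups. Sema6d, a class 6 ligand of A-type plexins with a role in heart development, at chr2:124089969-124667770 on the plus strand, rose by 2.23 ± 0.20 (4.69-fold, edgeR adjusted p = 3.07e-06). Sema6a, of the same class, rose by 1.16 ± 0.33. Sema5a measured 41.6, 49.2 and 48.2 CPM in FLK1+/LacZ- cells, 24.7, 44.6 and 54.7 in FLK1+/LacZ+ cells, 2.24, 7.49 and 5.63 in ENG+/FDG- HEI cells, 4.75, 3.62 and 2.78 in ENG+/FDG+ HEI cells and 10.9, 6.35 and 6.82 in ENG-/FDG+ HEI cells. The FLK1+ and HEI libraries of Sema5a, a thrombospondin-repeat semaphorin, did not overlap, and it fell by 3.03 on the log2 scale (SE 0.27, edgeR adjusted p = 3.12e-06). Sema4a, a class 4 semaphorin known from immune cells, had 1.11 to 5.94 CPM in FLK1+ libraries and 0 to 0.195 in HEI libraries, where no library had over 3 counts (-5.41 ± 0.72, edgeR adjusted p = 6.72e-05).

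Sema4g, at 5.23 to 16.5 CPM in FLK1+ and 1.02 to 5.72 in HEI libraries, fell too (-1.82 ± 0.33, edgeR adjusted p = 0.000693). The remaining decreases, given to complete the family, were Sema5b at -3.09 ± 0.76, Sema7a at -2.46 ± 0.81, Sema6c at -1.61 ± 0.49, Sema4d at -1.05 ± 0.33, Sema4b at -0.96 ± 0.30 and Sema4c at -0.64 ± 0.21. Sema7a and its receptor Plxnc1 thus differed in opposite directions, whereas Sema4d and its receptor Plxnb1 both fell. Sema4b and Sema4d each lost their call without FLK1+/LacZ+ replicate 1 (edgeR adjusted p = 0.0812 and 0.0903), and Sema6c lost its call without replicate 1 of either FLK1+ group (up to 0.0695). Neo1, Plxna2, Sema3a, Sema4c and Sema7a, each called in 4 to 8 of the 15 fits that leave out 1 library, and Sema3c, called in 11, lie close to the threshold; the highest adjusted p among these was 0.105, for Plxna2. Sema4f and Sema6b passed with the block, at -4.49 ± 1.45 and 0.67 ± 0.22 (edgeR adjusted p = 0.0173 and 0.0148; 0.0789 and 0.343 without it), and in replicates 2 and 3 alone (-5.71 and 0.76).

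**Figure D2:**
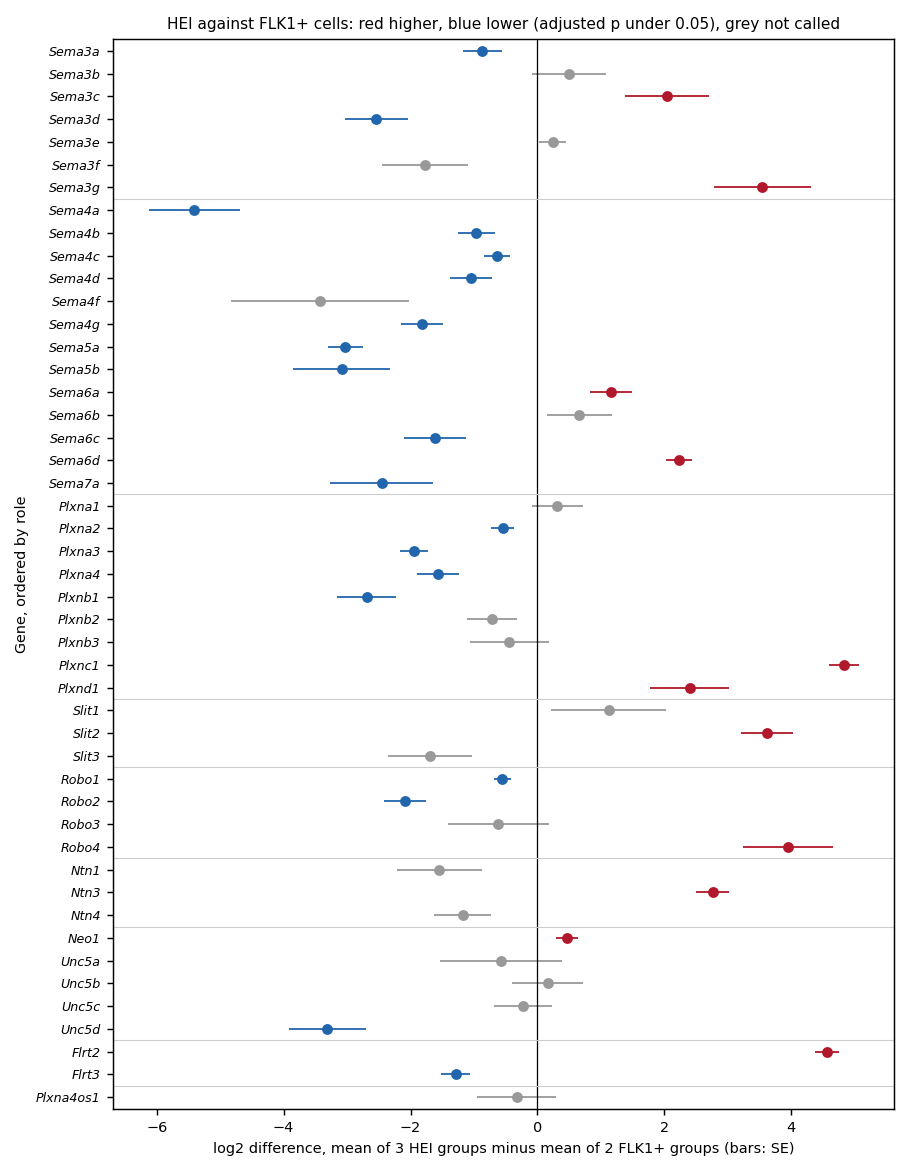
Difference between the mean of the 3 HEI groups and the mean of the 2 FLK1+ groups for each tested guidance gene (x axis, log2, bars show the standard error), ordered by role. Plxnc1 at 4.83 and Flrt2 at 4.57 are the farthest to the right and Sema4a at -5.41 the farthest to the left.

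Slit2 rose in HEI cells, and Slit3 was the main Slit of FLK1+ cells. Slit2 stood at 7.71, 8.31 and 6.58 CPM in FLK1+/LacZ- cells, 11.8, 7.60 and 6.88 in FLK1+/LacZ+ cells, 224, 77.7 and 109 in ENG+/FDG- HEI cells, 165, 81.4 and 104 in ENG+/FDG+ HEI cells and 125, 26.3 and 36.3 in ENG-/FDG+ HEI cells. Every HEI library exceeded every FLK1+ library. Slit2, the best studied Robo ligand, at chr5:47983138-48307733 on the plus strand, rose by 3.62 ± 0.41 (12.3-fold, edgeR adjusted p = 2.06e-05). Slit3 measured 44.7, 33.4 and 34.4 CPM in FLK1+/LacZ- cells, 55.9, 30.3 and 39.3 in FLK1+/LacZ+ cells, 6.31, 5.55 and 4.94 in ENG+/FDG- HEI cells, 10.1, 2.0 and 1.79 in ENG+/FDG+ HEI cells and 193, 3.94 and 10.3 in ENG-/FDG+ HEI cells. Slit3 was lower in 8 HEI libraries than in any FLK1+ library and highest of all in ENG-/FDG+ HEI replicate 1. Its difference, -1.70 ± 0.66, missed the threshold (edgeR adjusted p = 0.0609) and passed with the block (-2.19 ± 0.52, edgeR adjusted p = 0.00241) and in replicates 2 and 3 alone (-2.94). As a share of the summed CPM per kb of the Slits, Slit2 had a median of 9.11% and 9.83% in FLK1+/LacZ- and FLK1+/LacZ+ cells and of 91.7%, 94.9% and 63.0% in ENG+/FDG-, ENG+/FDG+ and ENG-/FDG+ HEI cells. Slit1, at 0 to 14.2 CPM, did not pass.

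Of the 4 Robo receptors 1 rose and 2 fell, beside 17% and 20.3% of all genes. Robo4 stood at 2.31, 1.57 and 0.371 CPM in FLK1+/LacZ- cells, 6.0, 2.20 and 1.03 in FLK1+/LacZ+ cells, 157, 22.1 and 30.6 in ENG+/FDG- HEI cells, 128, 23.6 and 30.2 in ENG+/FDG+ HEI cells and 14.7, 5.10 and 5.45 in ENG-/FDG+ HEI cells. Robo4 was high in every ENG+ library and intermediate in ENG- cells, where replicates 2 and 3 were below FLK1+/LacZ+ replicate 1, so FLK1+ and HEI libraries overlapped. Robo4, the endothelial Robo, at chr9:37401897-37415115 on the plus strand, rose by 3.95 ± 0.71 (15.5-fold, edgeR adjusted p = 0.000702). Robo2, a neuronal guidance receptor, was at 5.43 to 19.0 CPM in FLK1+ and 1.04 to 6.82 in HEI libraries (-2.09 ± 0.33, edgeR adjusted p = 0.000263). Robo1, which held the largest share of Robo CPM per kb in every FLK1+ library, was at 86.3 to 132 in FLK1+ and 57.3 to 86.6 in HEI libraries (-0.55 ± 0.14, edgeR adjusted p = 0.00589). Robo4 held a median of 2.29% and 3.83% of Robo CPM per kb in the FLK1+ groups, 44.7% and 48.1% in the ENG+ HEI groups and 16.3% in ENG-/FDG+ HEI cells. Robo3, at 0 to 3.93 CPM, did not pass. It ends 553 bases from the end of Robo4 on the opposite strand, and whether counting used strand is not stated.

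Netrins were low, and Ntn3 alone of the 3 rose. Ntn3 stood at 4.07, 3.05 and 3.71 CPM in FLK1+/LacZ- cells, 3.77, 3.50 and 2.05 in FLK1+/LacZ+ cells, 40.0, 26.5 and 25.6 in ENG+/FDG- HEI cells, 45.3, 20.5 and 19.8 in ENG+/FDG+ HEI cells and 15.4, 12.1 and 12.9 in ENG-/FDG+ HEI cells. The libraries did not overlap between FLK1+ and HEI cells. The difference for Ntn3, at chr17:24203848-24209531 on the minus strand, was 2.76 ± 0.26 (6.77-fold, edgeR adjusted p = 4.25e-06); its exons share 89 bases with Tbc1d24 and 139 with the antisense gene BC028777, so part of its counts is uncertain. Exons of Plxnc1 (115 bases), Plxnb1 (257) and Unc5c (118) overlap other annotated genes as well. Ntn1 stood at 0.353 to 13.3 CPM and did not pass, and Ntn4 passed with the block (-1.01 ± 0.41, edgeR adjusted p = 0.0419; 0.0533 without it) and in DESeq2 (adjusted p = 0.0441), but not in replicates 2 and 3 alone (edgeR adjusted p = 0.581). Of their receptors, Neo1 rose by 0.47 ± 0.17 (edgeR adjusted p = 0.0443) and Unc5d, at 1.79 to 6.74 CPM in FLK1+ and 0 to 1.32 in HEI libraries, fell (-3.31 ± 0.61). Unc5b stood at 492, 174 and 208 CPM in FLK1+/LacZ- cells, 574, 171 and 215 in FLK1+/LacZ+ cells, 687, 218 and 223 in ENG+/FDG- HEI cells, 702, 174 and 193 in ENG+/FDG+ HEI cells and 704, 98.1 and 86.9 in ENG-/FDG+ HEI cells. The levels of Unc5b, the endothelial netrin receptor, followed the replicate more than the group, and it did not pass (0.16 ± 0.56, edgeR adjusted p = 0.855). In replicates 2 and 3 alone the direction turned and Unc5b was called lower in HEI cells (-0.21, edgeR adjusted p = 0.0150). Unc5c (-0.23 ± 0.45, edgeR adjusted p = 0.738) and Unc5a, at 0 to 5.09 CPM, did not pass either.

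FLRT genes, which encode Unc5 and latrophilin ligands, changed in opposite directions in Flrt2 and Flrt3. Flrt2 stood at 5.82, 9.78 and 7.14 CPM in FLK1+/LacZ- cells, 10.9, 11.8 and 13.3 in FLK1+/LacZ+ cells, 231, 316 and 355 in ENG+/FDG- HEI cells, 210.0, 291 and 300.1 in ENG+/FDG+ HEI cells and 142, 142 and 147 in ENG-/FDG+ HEI cells. All 9 HEI libraries were above all 6 FLK1+ libraries. Flrt2, at chr12:95692226-95785215 on the plus strand, rose by 4.57 ± 0.19 (23.7-fold, edgeR adjusted p = 9.46e-09). Flrt3 measured 54.9, 68.1 and 66.8 CPM in FLK1+/LacZ- cells, 47.3, 81.0 and 96.5 in FLK1+/LacZ+ cells, 18.9, 30.8 and 36.8 in ENG+/FDG- HEI cells, 16.8, 38.8 and 35.8 in ENG+/FDG+ HEI cells and 32.0, 21.1 and 23.5 in ENG-/FDG+ HEI cells. Flrt3, at chr2:140650914-140671469 on the minus strand, fell without overlap (-1.29 ± 0.23, edgeR adjusted p = 0.000670). Flrt3 made up a median of 93.8% and 92.3% of FLRT CPM per kb in the FLK1+ groups, and Flrt2 made up 85.2%, 82.4% and 77.8% in the ENG+/FDG-, ENG+/FDG+ and ENG-/FDG+ HEI groups.

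**Figure D3:**
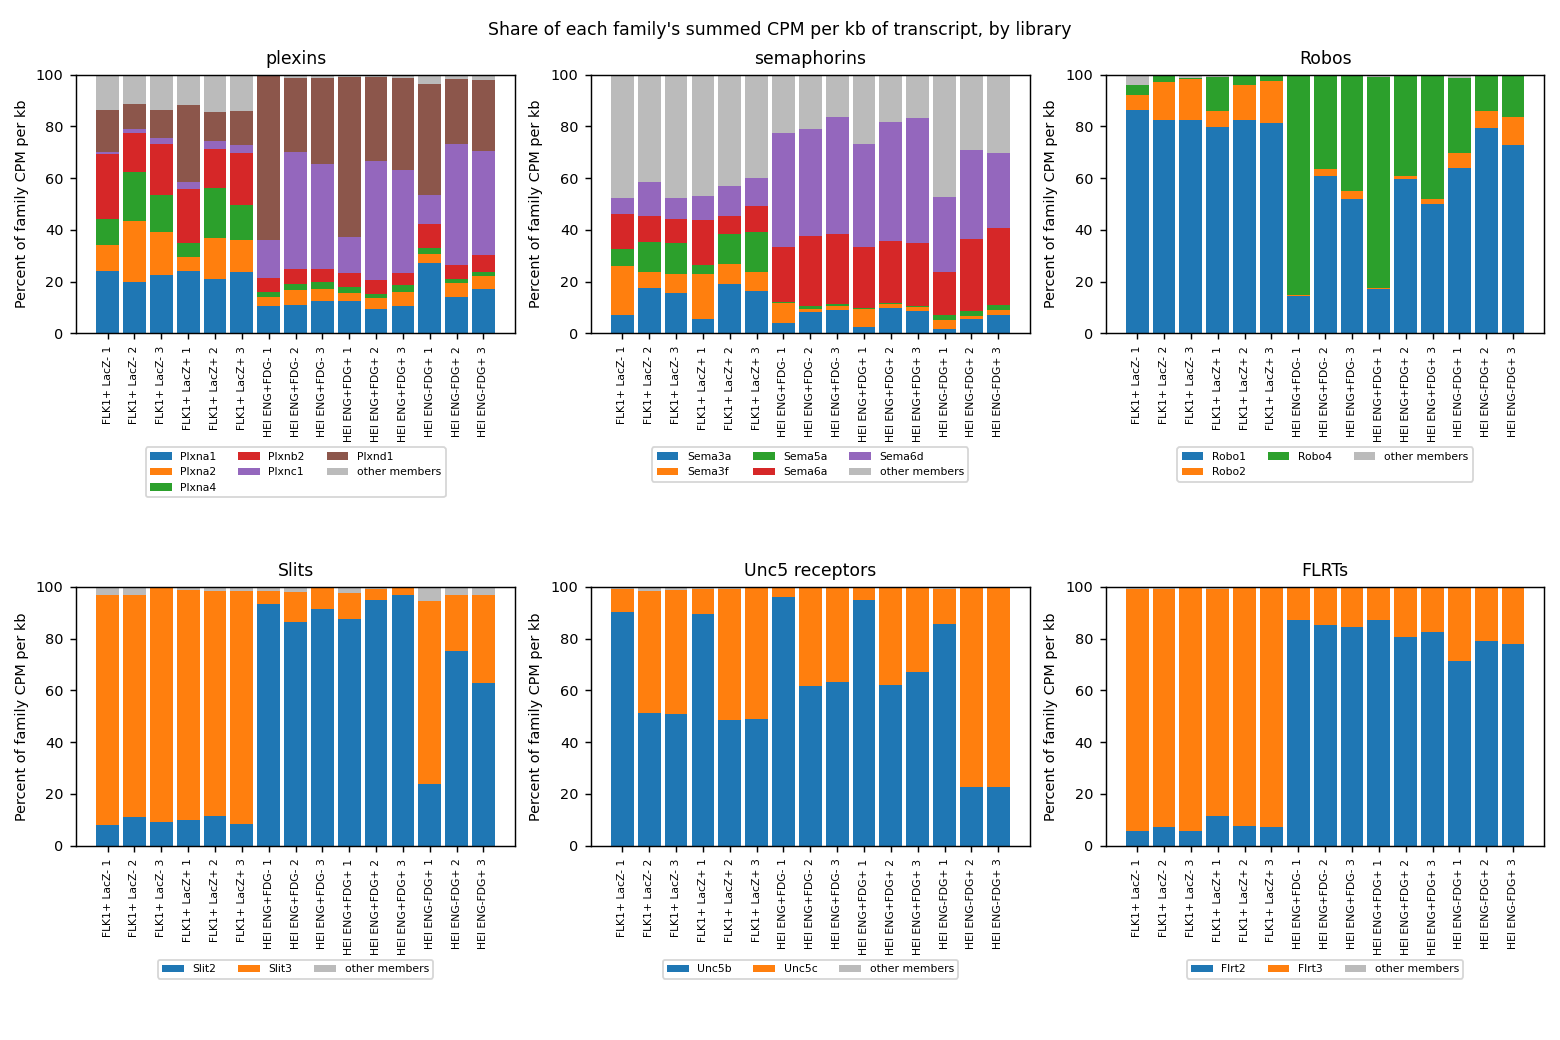
Share of each family's summed CPM per kb of transcript held by its members in each library (y axis, percent; 1 bar a library), for plexins, semaphorins, Robos, Slits, Unc5 receptors and FLRTs. Slit3 and Flrt3 fill most of the FLK1+ bars, Slit2 and Flrt2 most of the ENG+ HEI bars, and the Unc5 bars differ between replicate 1 and the other two.

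The lists of markers moved with this comparison as well. The summed level of 5 primitive streak markers was 644 to 2415 CPM in FLK1+ libraries and 2.29 to 14.5 in HEI libraries, with Mesp1 at 0 in every HEI library, and the endothelial sum rose as given above. Of 8 neural markers, whose sum was 4.85 to 32.4 CPM over all libraries, Neurog2 was at 0 throughout and Sox1 at 0 in HEI cells. The part of these in the differences of guidance genes was not tested.

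The ENG gate was compared in FDG+ HEI cells, ENG+/FDG+ against ENG-/FDG+, which asks what separates ENG surface-positive from ENG-negative cells with reporter activity. Robo4 and Plxnd1, receptors known from endothelial cells, and the ligand genes Flrt2, Sema6d and Sema3a were higher in ENG+ cells, and Unc5c and Robo2 were lower, once the replicate number was a block. Without the block no member passed (0 of 47, 14 at an unadjusted p under 0.05, beside 0.278% of all genes called by edgeR), and DESeq2 called 6, 3 higher and 3 lower, beside 3.23% (1.69% higher and 1.54% lower). With the block 14 of 47 passed, 10 higher and 4 lower, beside 10.8% of all genes (5.1% higher and 5.75% lower). In replicates 2 and 3 alone 18 passed, 14 higher and 4 lower, beside 29.3%, and 13 members were called in both. All ENG+/FDG+ libraries lay above all ENG-/FDG+ libraries for 8 members, beside 8.45% of all genes, and below them for 4, beside 5.99%. The median difference without the block was 0.31 over the members and -0.05 over all genes. Endothelial markers summed to 3223 to 4189.5 CPM in ENG+/FDG+ and 1667 to 1929 in ENG-/FDG+ libraries, and their part in these differences was not tested. Leaving out each of the 6 libraries in turn from the blocked fit, an alternative chosen after seeing the data, 7 of the 14 passed in every fit: Flrt2, Plxnd1, Robo4, Sema3a and Sema6d higher, and Robo2 and Unc5c lower.

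Robo4, at 128, 23.6 and 30.2 CPM in ENG+/FDG+ and 14.7, 5.10 and 5.45 CPM in ENG-/FDG+ HEI cells, did not overlap between the gates. Its difference was 2.64 ± 0.32 with the block (edgeR adjusted p = 0.000308) and 2.85 ± 0.97 without it (0.294). Flrt2 was at 210.0 to 300.1 CPM against 142 to 147, without overlap (0.87 ± 0.13 with the block, edgeR adjusted p = 0.00127; 0.147 without it). For Sema6d, at 159 to 192 against 56.3 to 81.7 CPM, the blocked difference was 1.38 ± 0.21 (edgeR adjusted p = 0.00129; 0.0719 without it). Plxnd1 was higher in ENG+ cells within each replicate, 880.4, 208 and 242 against 440.1, 113 and 135 CPM, while the groups overlapped through replicate 1 (0.90 ± 0.15 with the block, edgeR adjusted p = 0.00269; 0.920 without it). The same held for Sema3a, 10.1, 32.2 and 32.4 against 4.16, 10.2 and 13.5 CPM (1.39 ± 0.25 with the block, edgeR adjusted p = 0.00416; 0.303 without it).

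Unc5c stood at 78.5, 264 and 322 CPM in FLK1+/LacZ- cells, 101, 293 and 365 in FLK1+/LacZ+ cells, 43.4, 222 and 211 in ENG+/FDG- HEI cells, 58.3, 174 and 155 in ENG+/FDG+ HEI cells and 184, 543 and 486 in ENG-/FDG+ HEI cells. Unc5c, a netrin receptor that has FLRT ligands too, at chr3:141465216-141834924 on the plus strand, was the reverse of Robo4: each ENG-/FDG+ library exceeded the ENG+/FDG+ libraries, and within each number it was the highest of the 5 groups. Its ENG difference was -1.65 ± 0.17 with the block (edgeR adjusted p = 7.27e-05) and -1.65 ± 0.72 without it (0.489). Robo2, at 1.04, 1.52 and 1.99 against 5.77, 4.81 and 6.82 CPM, differed by -2.02 ± 0.36 (edgeR adjusted p = 0.00366; 0.183 without the block). Unc5b stood at 702, 174 and 193 against 704, 98.1 and 86.9 CPM. It was called in replicates 2 and 3 (1.05, edgeR adjusted p = 7.30e-06) but not with the block over all libraries (0.171). With the block and without ENG-/FDG+ replicate 1, Unc5b was called too (1.12, edgeR adjusted p = 0.00044). As a share of Unc5 CPM per kb, Unc5b was 67.0% in ENG+/FDG+ and 22.9% in ENG-/FDG+ HEI cells at the median, but 95.1% and 85.5% in replicate 1.

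A further 7 members passed with the block but lost the call in at least 1 of the 6 fits that leave out a library. Among ligands these were Slit2 (1.10 ± 0.29, edgeR adjusted p = 0.0306, called in 1 of 6), Ntn3 (1.0 ± 0.22, adjusted p = 0.0106, lost only without ENG+/FDG+ replicate 1, at 0.0732) and Sema3f (1.32 ± 0.31, adjusted p = 0.0151, called in 2). Neo1 differed by 0.50 ± 0.13 (edgeR adjusted p = 0.0212, called in 2). Slit3 and Sema6b, called but named here after their values were seen, differed by -3.32 ± 0.88 and 1.23 ± 0.34 (edgeR adjusted p = 0.0309 and 0.0325), and Sema5b by -3.58 ± 0.94 (adjusted p = 0.0265). The Slit3 and Sema5b values rest on ENG-/FDG+ HEI replicate 1, at 193 and 14.2 CPM against 3.94 and 10.3, and 0.481 and 0.596, in the other 2 libraries. Without it their differences were -0.94 and -1.43 (edgeR with the block, adjusted p = 0.269 and 0.242).

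**Figure D4:**
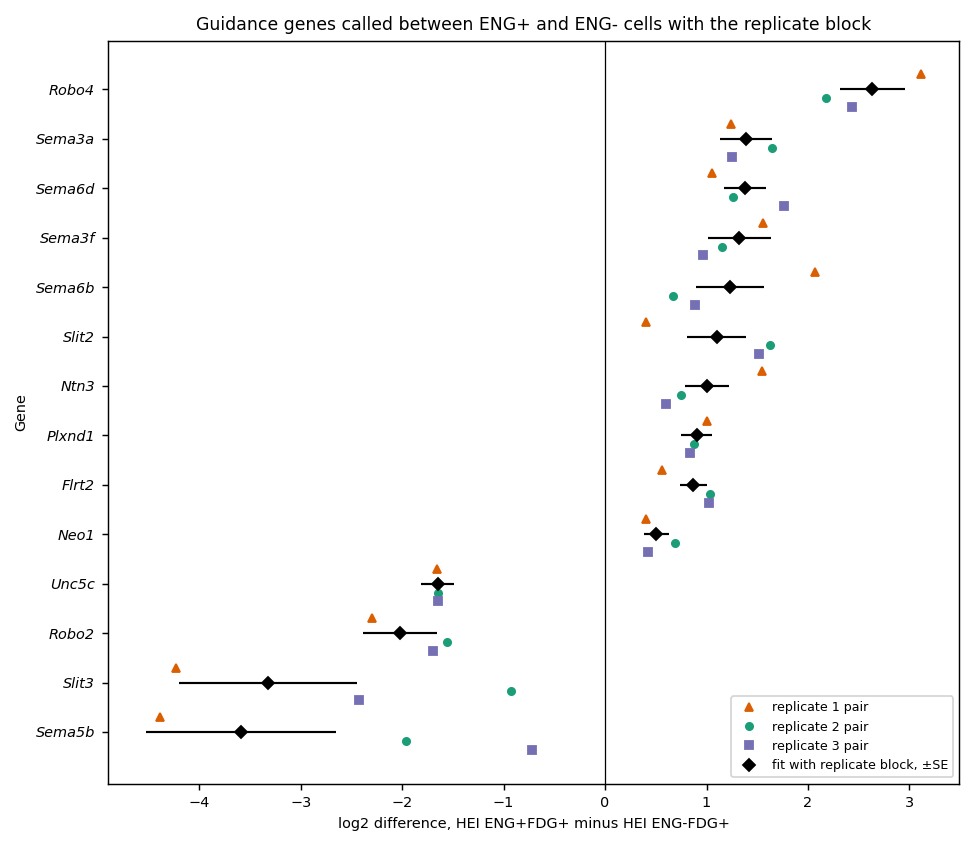
ENG+/FDG+ minus ENG-/FDG+ differences of the guidance genes called with the replicate block (x axis, log2), with the blocked estimate and its standard error and the value within each replicate number. Robo4, Sema6d, Sema3a, Plxnd1 and Flrt2 are to the right of 0 and Unc5c and Robo2 to the left in all 3 numbers, and for Slit3 and Sema5b replicate 1 lies far from the other two.

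ENG-/FDG+ HEI replicate 1 also held 34.4 CPM of Plxnb1 against 2.69 and 4.09 in replicates 2 and 3, 16.4 of Sema4f against 0 and 0, and 14.2 of Slit1. It had the fewest genes detected, 13954. Its summed level of 8 mesenchyme and smooth muscle markers was 5056 CPM, beside 354 and 770.0 in the other ENG- libraries and 127 to 572 in the ENG+ HEI libraries. Of that sum Acta2 alone held 3602 CPM and Tagln 355, while Pdgfra of the same list was at 1.36 in this library. The neural sum was 32.4 CPM there, with Sox1 and Neurog2 at 0, beside 5.10 and 6.65. Blood markers summed to 466 to 538 CPM in ENG-/FDG+ cells and to 89.7 to 127 in the ENG+ HEI groups. In FLK1+/LacZ- and FLK1+/LacZ+ cells their sums were 159 to 165 and 185 to 207 CPM. Runx1 alone held 234 to 302 CPM in ENG-/FDG+ cells, and Ptprc was at 0.509, 0 and 0. The part of these markers in the ENG differences was not tested. With ENG-/FDG+ HEI replicate 1 left out of the blocked fit, an alternative chosen after seeing the data, 10 members were higher and 2 lower. The share over all genes is not given for this fit, so the count is not read as a result about the members.

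ENG-/FDG+ HEI cells were also compared with ENG+/FDG- HEI cells, a comparison that shares the ENG- libraries with the previous one and so is no separate support. Without the block 0 of 47 members passed (12 at an unadjusted p under 0.05, beside 0.351% of genes called by edgeR; DESeq2 called 6, beside 3.26%). With the block 12 passed, 3 higher and 9 lower in ENG-/FDG+ cells, beside 11.1% of genes (5.44% higher and 5.65% lower). In replicates 2 and 3, 16 passed, 1 higher and 15 lower, beside 27.1%. Here the ENG- libraries stand on the other side of the difference, and with the block Robo4 differed by -2.74 ± 0.32, Flrt2 by -1.04 ± 0.13, Sema6d by -1.33 ± 0.21, Sema3a by -1.50 ± 0.25, Plxnd1 by -0.88 ± 0.15 and Ntn3 by -1.16 ± 0.22. Unc5c differed by 1.51 ± 0.17 (edgeR adjusted p = 0.000138). These 7 passed in all 6 fits that leave out a library. Neo1 (-0.60 ± 0.13), Slit2 (-1.25 ± 0.29), Sema3f (-1.32 ± 0.31), Robo2 (1.23 ± 0.34) and Sema5b (4.86 ± 1.08) did not in at least 1: Neo1 without ENG+/FDG- replicate 3 (edgeR adjusted p = 0.0523), Sema3f and Sema5b without ENG+/FDG- replicate 1 (0.151 and 0.140), and Slit2 and Robo2 in 4 of the 6 (up to 0.0929 and 0.165).

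**Figure D5:**
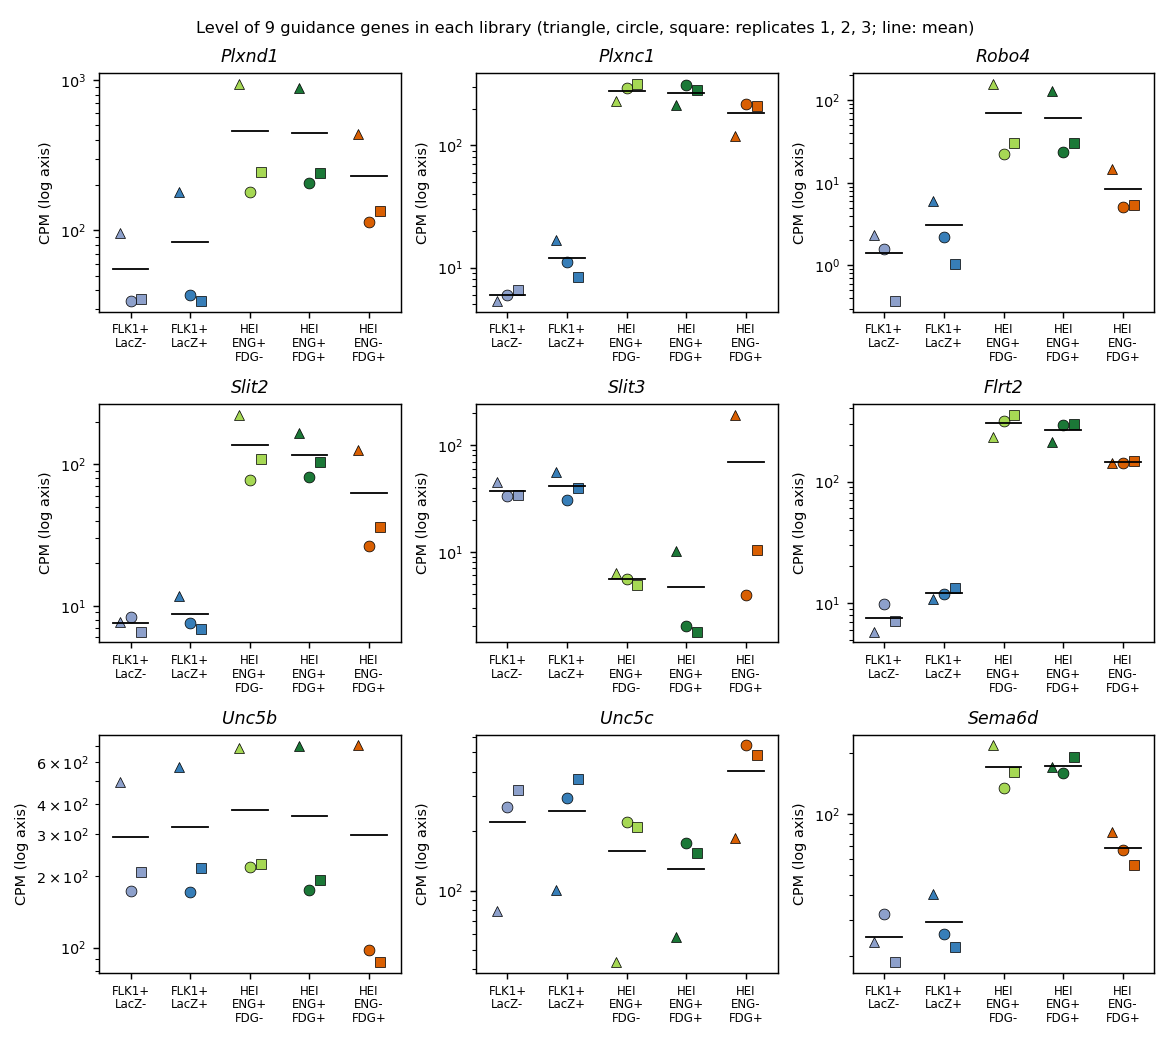
CPM in each of the 15 libraries (y axis, log scale) for 9 guidance genes on which the comparisons turn, by group, with triangles, circles and squares for replicates 1, 2 and 3 and a line at the mean. The means of Robo4, Flrt2, Plxnc1 and Slit2 are higher in each HEI group than in the FLK1+ groups, and Unc5c is highest in ENG-/FDG+ HEI cells within each number.

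Reporter activity was compared within each stage: LacZ+ with LacZ- in FLK1+ cells and FDG+ with FDG- in ENG+ HEI cells. For LacZ, 0 of 47 members passed in edgeR, with or without the block (8 and 3 at an unadjusted p under 0.05), as did 0 in DESeq2 and 0 in replicates 2 and 3, beside 0% of all genes in edgeR, 0.0586% in DESeq2 and 0.0601% in replicates 2 and 3 (0.0375% higher and 0.0225% lower). For FDG, 0 passed in edgeR with or without the block (0 at an unadjusted p under 0.05) and 0 in DESeq2, beside 0% of genes. In replicates 2 and 3 alone, 1 member passed for FDG: Sema5a, lower in FDG+ cells (-1.0, edgeR adjusted p = 0.0497), beside 0.563% of genes (0.045% lower). No member had its 3 FDG+ libraries all above or all below the FDG- libraries, beside 1.83% and 1.58% of genes. The 4 members of highest level are given as values. Unc5b differed by 0.14 ± 0.87 for LacZ and -0.08 ± 0.87 for FDG, Unc5c by 0.19 ± 0.71 and -0.30 ± 0.71, Plxnd1 by 0.60 ± 0.88 and -0.04 ± 0.87, and Plxnc1 by 1.01 ± 0.30 and -0.06 ± 0.29. Flrt2 and Plxnc1 had all 3 LacZ+ libraries above all 3 LacZ- libraries, beside 2.44% of all genes, with Flrt2 at 10.9, 11.8 and 13.3 against 5.82, 9.78 and 7.14 CPM. The test of the FDG difference against the LacZ difference called 0 of 47 members and 0 genes by edgeR and by DESeq2 (2 members at an unadjusted p under 0.05).

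Of 22 co-receptors, partners and other ligands of these families, 17 were tested, and 11 passed in the HEI against FLK1+ comparison, 4 higher (Lphn2, Met, Nrp1 and Nrp2) and 7 lower (Cdon, Dscam, Gpc1, Lphn3, Ntng1, Rgma and Sdc1), beside 37.3% of all genes. Nrp1, the neuropilin of Sema3a and VEGF, stood at 147, 289.8 and 242 CPM in FLK1+/LacZ- cells, 287, 624 and 590.3 in ENG+/FDG+ HEI cells and 245, 360.0 and 386 in ENG-/FDG+ HEI cells. It differed by 0.97 ± 0.28 between HEI and FLK1+ cells (edgeR adjusted p = 0.0161), and by 0.54 ± 0.14 for ENG with the block (edgeR adjusted p = 0.0228; 0.817 without it). Nrp2 differed by 0.56 ± 0.15 (edgeR adjusted p = 0.0117) and, for ENG, by 0.44 ± 0.13 with the block (adjusted p = 0.0390; 0.671 without it). Lphn2, a latrophilin bound by FLRT proteins, differed by 0.59 ± 0.15, and Rgma, a Neo1 ligand, by -4.60 ± 0.78. For the ENG gate with the block, 6 of 17 passed, 5 higher and Sdc1 lower, beside 10.8% of all genes.

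Of 46 intracellular genes of the pathway, all tested, 21 passed in the HEI against FLK1+ comparison, 14 higher and 7 lower, beside 37.3% of all genes (17% higher and 20.3% lower). Dpysl3 and Dpysl5, both collapsin response mediators that act downstream of semaphorins, moved in opposite directions, by 5.02 ± 0.22 and -5.52 ± 0.25 (edgeR adjusted p = 1.02e-08 and 1.62e-08). Srgap1, a Robo-binding GTPase activator, differed by 1.93 ± 0.15, Mical2, of the plexin-linked oxidoreductases, by 3.65 ± 0.57 and the kinase Pak1 by -2.24 ± 0.24. With the block, 8 passed for the ENG gate, 7 higher (Arhgef12, Fes, Mical2, Rras, Srgap1, Srgap2 and Trio) and Rnd2 lower, beside 10.8% of all genes. Without the block 0 genes of either list passed for ENG by edgeR, beside 0.278% of all genes (4 of the partners and 6 of the intracellular genes at an unadjusted p under 0.05). DESeq2 called 2 partners and 3 intracellular genes, beside 3.23% of all genes. Median HEI against FLK1+ differences were -0.27 for the partners and 0.20 for the intracellular genes, beside -0.11 over all genes, and both lists were chosen with results known.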

How the data were processed

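The deposited values are raw counts per gene for 15 libraries of sorted mouse cells; per the labels' protocols, RNA was amplified with a Nugen kit before library construction. The submitters' processing notes name STAR 2.4.0, HTSeq 0.6.1 and mm10; strand use is not given in the labels or notes. Of 24061 lines, 27 that name a date in place of a gene (0.153 to 0.349% of counts) were left out, and 24034 genes remained.

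Groups came from the labels. Counts were tested with edgeR 4.0.16 (limma 3.58.1, R 4.3.3): filterByExpr, TMM, robust quasi-likelihood fit of the 5 group means over all 15 libraries, Benjamini-Hochberg adjustment over 13662 genes and a threshold of 0.05. The script was tested on simulated data. Alternatives were RLE scaling, no filter, at least 5 CPM in 3 libraries, only the groups compared, DESeq2 1.42.0, replicates 2 and 3 only, each library left out, and a block for replicate number. The labels' numbers r1 to r3 were taken to pair the samples. Deviations from group means correlated at 0.43 to 0.87 in every same-numbered pair and at -0.76 to -0.48 between replicate 1 and the others. Between replicates 2 and 3 they correlated at 0.43 to 0.64, which overlaps the same-numbered range. These values set replicate 1 apart but do not show that replicates 2 and 3 pair across groups. Deviations sum to 0 within a group, so negative values are partly built in. The biological coefficient of variation was 0.477 without the block, 0.199 with it and 0.0761 in replicates 2 and 3. Floors cover counting error only.

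Gene positions are from GENCODE M21, which matched all 49 members by symbol, and lengths are those of the principal transcript. Promoters are from RefSeq's GRCm38.p6 table. Genes named per comparison are up to 12 past the threshold by adjusted p, or, with fewer than 4, those past it with the block and the members of highest level; other members are named to complete a family, after their values were seen. Members and lists were chosen with earlier results of these data known. No sample's column was left unused.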

Additional observations from a re-analysis of the deposited data

Results flagged for a closer look

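Flrt2 and Sema3c had differences of opposite sign in the 2 reporter comparisons in their same-numbered pairs. For Flrt2, an FLRT ligand of Unc5 receptors, FDG+ minus FDG- was -0.14, -0.12 and -0.24 (log2) in replicates 1, 2 and 3, and LacZ+ minus LacZ- was 0.88, 0.27 and 0.89. The FDG difference minus the LacZ difference was -0.83 ± 0.34 (SE) and did not pass (edgeR adjusted p = 0.999966). For Sema3c, a class 3 semaphorin with 0 to 32 counts a library, the FDG pairs were -1.57, -0.98 and -0.73 and the LacZ pairs 2.49, 0.04 and 0.29. The replicate 2 LacZ pair held 1 count in each library, under the limit of 3 counts, so its 0.04 is scaling and shows no difference. Its difference of differences was -2.43 ± 1.39 (SE) and did not pass either (edgeR adjusted p = 0.999966).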

How the results depend on the processing

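In the HEI against FLK1+ comparison the member counts kept within 1.5 times under RLE scaling, both filters, DESeq2, the block and replicates 2 and 3. DESeq2 called 11 higher and 21 lower, beside 19.4% and 22.2% of all genes. Leaving out 1 library gave 9 to 11 higher and 14 to 22 lower, while the genes called in all moved between 4656 and 5732. The test over 5 groups called 37 members with the block, beside 58.4% of genes, and 37 in replicates 2 and 3, beside 72.6%. With 1 library left out it called 16 to 23 members and 2577 to 3824 genes in all. For the ENG gate, DESeq2 called 3 higher and 3 lower, the block 10 and 4, and replicates 2 and 3 14 and 4. For ENG-/FDG+ against ENG+/FDG- cells, DESeq2 called 2 higher and 4 lower, the block 3 and 9, and replicates 2 and 3 1 and 15. With no block, leaving out 1 library gave 0 members in both, with 0 to 34 and 0 to 43 genes called in all. In the blocked fits without 1 library, chosen after seeing the data, ENG counts were 5 to 10 higher (5 without ENG+/FDG+ replicate 1) and 2 to 6 lower (6 without ENG-/FDG+ replicate 2), and those of the other comparison 1 to 5 and 7 to 11. Without ENG-/FDG+ HEI replicate 1 the blocked fit called 39 members over the 5 groups and, for HEI against FLK1+, 12 higher and 26 lower. Shares over all genes are not given for the blocked fits without 1 library, so these counts show only how calls move with processing. For FDG, replicates 2 and 3 called 1 member lower. Between FLK1+ and HEI cells the block changed the call of no tested member other than Plxnb2, Sema3f, Slit3, Sema4f, Ntn4 and Sema6b, and it changed no member's call in the LacZ and FDG comparisons or their difference. The cause of these changes was not tested.

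Single members that did not pass changed sign. Between HEI and FLK1+ cells, Unc5b turned to -0.21 and was called in replicates 2 and 3. For FDG, Plxnd1 was 0.0254 with the block, 0.00452 with the block and without ENG-/FDG+ replicate 1, and 0.11 in replicates 2 and 3, where its difference of differences was 0.0658. With 1 library left out, LacZ differences ranged from -0.59 to 0.74 for Unc5b, -0.63 to 1.28 for Plxnd1 and -0.21 to 0.57 for Unc5c. FDG differences ranged from -1.03 to 0.69 for Unc5b, -1.02 to 1.06 for Plxnd1, -0.75 to 0.0489 for Unc5c and -0.18 to 0.0901 for Plxnc1. Plxnd1 ranged from -0.0251 to 1.84 for ENG and from -1.91 to 0.11 for ENG-/FDG+ against ENG+/FDG-, where Sema3f ranged from -2.66 to 0.22. Differences of differences ranged from -1.17 to 0.55 for Unc5b and -1.62 to 0.59 for Plxnd1.

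Over all genes, calls moved from 38 for ENG to 12 with no filter, 65 at 5 CPM, 441 in DESeq2, 1482 with the block, 3899 in replicates 2 and 3 and 0 with only the groups compared; from 48 in the other ENG comparison to 13, 445, 1515, 3605 and 0 for no filter, DESeq2, block, replicates 2 and 3 and the groups compared. HEI against FLK1+ went from 5096 to 9039 with the block and 9815 in replicates 2 and 3, and the 5 groups from 3176 to 7973 and 9672. From 0, LacZ went to 8 in DESeq2 and 8 in replicates 2 and 3, FDG to 75 and the difference of differences to 4 in replicates 2 and 3. RLE moved the median difference of all genes by at most 0.02. Members under 3 counts in a group cannot be told from 0 at this depth.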

Other observations

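Among the 37 members that differed between replicate 1 and replicates 2 and 3 over all groups, the netrin receptors moved in opposite directions: Unc5b was 1.91 (log2) in replicate 1 and Unc5c -1.77 (edgeR adjusted p = 1.87e-07 and 8.94e-09). Plxnd1 and Robo4 were higher there by 1.97 and 2.03 (edgeR adjusted p = 6.02e-10 and 8.76e-07), and Eng CPM was highest in replicate 1 of each group too. These members were picked after their values were seen.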
